A study of Mus musculus with 2 samples.

Results

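The genes described are 8 markers of alternative macrophage activation: Mrc1, Chil3, Cd163, Folr2, Clec10a, Il4ra, Tgm2 and Egr2. They were taken by symbol from the 31053 genes listed in both count matrices, and all 8 were found. The cells were bone marrow derived macrophage cultures from 129Sv mice, grown in 50 ng/ml macrophage colony-stimulating factor (M-CSF), a growth factor that turns marrow cells into macrophages. On day 7 they received either 1 µg/ml truncated Tamm-Horsfall protein (THP, or uromodulin, a glycoprotein made in the kidney) or its vehicle, 5% dextrose, for 18 h. Each group was 1 droplet library in which molecules carry unique molecular identifiers (UMIs), so treatment, culture dish and library preparation cannot be told apart. No p-value is given, and every interval below is a 95% interval that covers counting error only.

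Alternative activation is the state that macrophages enter when IL-4 or IL-13 engages a receptor containing the IL-4 receptor alpha chain, which signals through JAK kinases to the transcription factor STAT6. Its classical markers in the mouse include endocytic receptors, the chitinase-like protein Chil3 and the crosslinking enzyme transglutaminase 2. Several of the markers also have other uses: Chil3 is abundant in maturing neutrophils and monocytes, and Mrc1, Cd163 and Folr2 are widely used to identify resident tissue macrophages. Neither label names IL-4 or IL-13 among the agents given.

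The 250 bases before the start site are shown for the members whose values carry most of the comparisons below: 3 endocytic receptors, the chitinase-like protein and the IL-4 receptor. RefSeq promoter entries on GRCm38.p6 matched 6 of the 8 members with 11 start sites; Clec10a and Tgm2 were not matched. Both strands were searched for the letters of a STAT6 motif (TTCNNNNGAA), a PU.1 motif (GAGGAA), a MAF motif (TGCTGA) and a C/EBP motif (TTGCNNAA), and the capitals mark a match. The windows run 5′ to 3′ on the strand of the gene and lie at chr2:14229164-14229413 (plus strand, Mrc1), chr6:124304401-124304650 (plus strand, Cd163), chr7:101857191-101857440 (minus strand, Folr2, the farther upstream of its 2 entries), chr3:106167565-106167814 (minus strand, Chil3) and chr7:125552021-125552270 (plus strand, Il4ra).
Mrc1: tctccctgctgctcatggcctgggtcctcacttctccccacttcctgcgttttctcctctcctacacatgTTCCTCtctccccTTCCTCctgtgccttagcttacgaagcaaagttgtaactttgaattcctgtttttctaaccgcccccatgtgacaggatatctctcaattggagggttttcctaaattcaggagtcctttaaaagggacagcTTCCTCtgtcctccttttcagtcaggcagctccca
Cd163: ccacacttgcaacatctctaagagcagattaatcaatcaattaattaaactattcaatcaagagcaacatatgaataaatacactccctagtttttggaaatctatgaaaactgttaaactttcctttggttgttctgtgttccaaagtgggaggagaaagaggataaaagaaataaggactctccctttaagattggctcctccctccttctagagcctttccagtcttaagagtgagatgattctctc
Folr2: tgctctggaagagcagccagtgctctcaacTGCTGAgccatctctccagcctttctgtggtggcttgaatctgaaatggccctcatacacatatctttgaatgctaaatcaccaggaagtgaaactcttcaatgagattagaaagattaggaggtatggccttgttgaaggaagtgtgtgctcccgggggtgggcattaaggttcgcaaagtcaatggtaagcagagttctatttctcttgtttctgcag
Chil3: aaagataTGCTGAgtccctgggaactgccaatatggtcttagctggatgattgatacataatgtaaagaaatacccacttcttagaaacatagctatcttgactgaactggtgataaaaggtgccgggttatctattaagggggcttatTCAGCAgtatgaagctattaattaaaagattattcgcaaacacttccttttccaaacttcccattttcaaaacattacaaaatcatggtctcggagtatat
Il4ra: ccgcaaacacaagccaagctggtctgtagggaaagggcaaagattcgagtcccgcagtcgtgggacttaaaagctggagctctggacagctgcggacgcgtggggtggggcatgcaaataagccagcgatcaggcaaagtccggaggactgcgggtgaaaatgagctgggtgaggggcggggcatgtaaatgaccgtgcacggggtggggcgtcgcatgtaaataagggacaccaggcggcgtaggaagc
The PU.1 letters occurred 3 times in the Mrc1 window, on the reverse strand each time. The MAF letters occurred 2 times in the Chil3 window and 1 time in the Folr2 window, and the Cd163 and Il4ra windows held none of the 4 motifs. Of 32817 promoter windows of this length, 23.3% held the PU.1 letters, 16.1% the MAF letters, 9.57% the C/EBP letters and 5.85% the STAT6 letters. A match is a description of the sequence only.

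After filtering, 12123 THP cells with 224825484 UMIs and 10978 vehicle cells with 207662132 UMIs were kept, at a median of 16113 and 17223 UMIs per cell; 38 cell barcodes occurred in both libraries. Cells were sorted into gates by marker genes that do not include any member, and a gate is a range of a marker score, not a proven cell type. The macrophage gate (markers including Adgre1, C1qa, C1qb, C1qc and Mertk) took 32.5% of cells with THP and 20.8% with vehicle, with 446 and 270 of them within 1.25 times the threshold. Monocytes made up 10.7% and 14.96%, mature neutrophils 12.4% and 14.6%, immature neutrophils 7.99% and 12.2%, and myeloid progenitors 6.67% and 9.84%, in that order of libraries. Smaller gates held MHC class II antigen-presenting cells (6.92% and 8.13%), osteoclast-type cells (5.00% and 5.57%), macrophages with Vsig4 and related resident-type genes (1.67% and 1.63%) and stromal cells (80 and 69 cells), while 14.1% and 10.5% of cells passed no gate. The labels call all cells macrophages, whereas these gates found cells with neutrophil, progenitor and monocyte markers in both libraries. Per 10000 UMIs, mature neutrophil markers had a median of 5.07 and 7.03 in macrophage-gated cells and 2633 and 2244 in mature neutrophils, and macrophage markers a median of 0 in both neutrophil gates. The osteoclast-type gate rested on Mmp12, Atp6v0d2, Dcstamp and Acp5, since Ocstamp was at 1.15 and 2.58 CPM there.

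Over all kept cells none of the 8 genes passed the size rule, which asks for 10 CPM or more (counts per 1000000 UMIs) in 1 library and levels 2-fold or more apart after adding 1 CPM to each. Of 8012 genes tested, 3.88% passed it (0.911% higher and 2.97% lower with THP), and the median log2 ratio of those genes was -0.18. The 8 members had a median log2 ratio of -0.27, with 6 of them at 10 CPM or more. Folr2 and Tgm2 had higher levels in the THP library, and Mrc1, Chil3, Cd163 and Il4ra had lower levels. Clec10a and Egr2 stayed under 10 CPM in both libraries. Other scalings of the libraries (TMM) moved the median of all genes from -0.18 to 0.0014, so each ratio below shifts upwards by about as much, and the split of all genes past the rule from 73 higher and 238 lower to 104 higher and 99 lower.

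**Figure D1:**
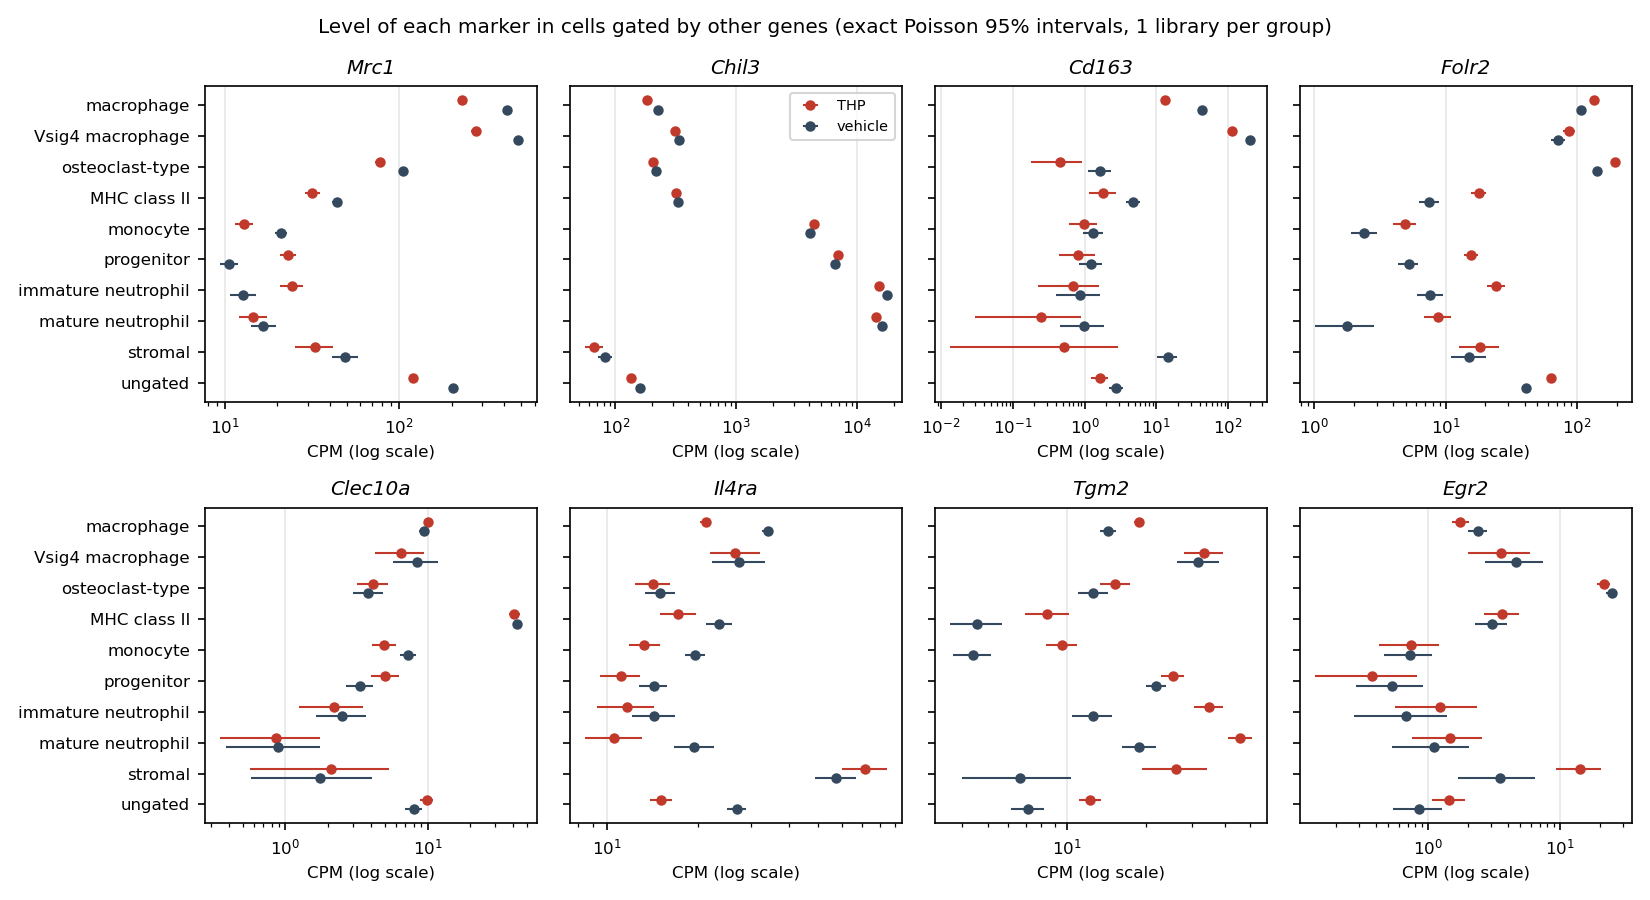
Level of each marker (CPM, log scale) in each gate of the THP library (red) and the vehicle library (dark blue), with exact Poisson 95% intervals on 1 library per group. Chil3 is highest in both neutrophil gates, Clec10a in the MHC class II gate and Cd163 in the Vsig4-macrophage gate. Egr2 has its highest value in the osteoclast-type gate, where the THP interval overlaps that of the stromal gate.

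Mrc1 encodes the mannose receptor (CD206), which takes up mannosylated glycoproteins. It lies at chr2:14229392-14332057 on the plus strand (GRCm38, as are all coordinates here). Its level in all kept cells was 139 CPM (137 to 140) with THP and 175 CPM (173 to 177) with vehicle, from 31214 and 36395 UMIs. The macrophage gate alone gave 230 CPM (227 to 233) with THP and 414 CPM (409 to 419) with vehicle, a ratio of 0.556 (0.546 to 0.566) and a log2 ratio of -0.85. The macrophage gate thus showed a wider gap than the whole libraries, without reaching the 2-fold limit. At the percentile scale of the 7913 genes tested in that gate, Mrc1 stood at 5.61. Weighting the gates of both libraries by the same mix gave a log2 ratio of -0.70 over all cells, against -0.33 with each library's own mix. With TMM factors the all-cell log2 ratio was -0.15, and corrected for a trend with transcript length it was -0.10. Over all kept cells Mrc1 stood at percentile 35.8 of the genes tested, so its all-cell gap was not unusual among them.

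Mrc1 was highest in the Vsig4-macrophage gate (275 and 481 CPM with THP and vehicle), then in the macrophage gate and then in the osteoclast-type gate (77.3 and 105 CPM). These 3 levels had intervals that did not overlap in either library. The macrophage gate held 74.0% of the Mrc1 UMIs with THP and 68.6% with vehicle. In the progenitor gate the direction was the other way: 23.1 CPM (20.8 to 25.6) with THP and 10.6 CPM (9.36 to 11.98) with vehicle, a log2 ratio of 1.05 that passed the rule, beside 1.44% of the 7920 genes tested there that passed it upwards. Those were low counts, 367 UMIs in 112 cells and 260 UMIs in 80 cells, and after thinning each cell to 2000 UMIs the share of progenitors with an Mrc1 UMI was 2.13% (1.24 to 3.39) and 1.86% (1.14 to 2.85). The macrophage gate gave 34.1% and 48.1% by the same measure. At shares this low the progenitor value was not read as expression, and the part of free RNA in the droplets was not tested.

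Cd163 encodes the scavenger receptor that clears haptoglobin-haemoglobin complexes and lies at chr6:124304656-124330527 on the plus strand. Cd163 in the macrophage gate was 13.4 CPM (12.7 to 14.1) with THP and 42.6 CPM (41.0 to 44.3) with vehicle, from 1345 and 2570 UMIs. The vehicle level was 3.18-fold the THP level (log2 ratio -1.60), and Cd163 was the single member of the 7 tested in the gate that passed the rule there, beside 2.72% of genes that passed it downwards. Its log2 ratio stood at percentile 0.190 of the genes tested in the gate. Among all kept cells Cd163 was 8.66 CPM (8.28 to 9.05) with THP and 17.5 CPM (16.9 to 18.0) with vehicle. The vehicle level was 2.02-fold (1.91 to 2.13) the THP level on plain CPM and fell short of 2-fold with the pseudocount (log2 ratio -0.93). With the same mix of gates in both libraries the log2 ratio was -1.24.

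The Vsig4-macrophage gate had the highest Cd163 level in each library, 112 CPM (102 to 122) with THP and 199 CPM (185 to 214) with vehicle, at a log2 ratio of -0.83. That gate and the macrophage gate together left little elsewhere: 69.1% and 24.0% of the Cd163 UMIs with THP, and 70.9% and 20.3% with vehicle, came from the macrophage and the Vsig4-macrophage gate. In the osteoclast-type, monocyte, progenitor and neutrophil gates every level was under 2 CPM, from 2 to 44 UMIs. The stromal gate also passed the rule, beside 5.56% of genes lower there, with 1 UMI in the THP library and 41 UMIs in 11 cells of the vehicle library. When cells carrying markers of several lineages were left out, the stromal gate held 3 Cd163 UMIs in the vehicle library. The stromal gates of the libraries also differed in their own markers, with Col1a1 at 719.5 CPM with THP and 4792 CPM with vehicle.

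**Figure D2:**
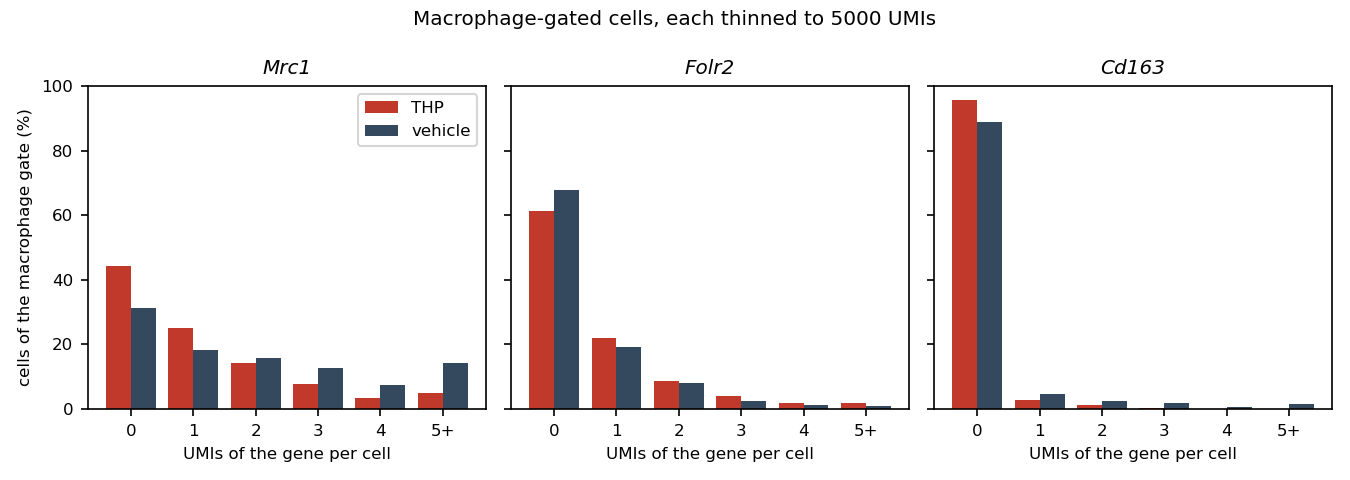
Share of macrophage-gated cells (%) by the number of Mrc1, Folr2 and Cd163 UMIs per cell after thinning each cell to 5000 UMIs, in the THP library (red) and the vehicle library (dark blue). With vehicle fewer cells have 0 UMIs of Mrc1 (31.1% against 44.2%) and Cd163 (89.0% against 95.6%), and with THP fewer have 0 UMIs of Folr2 (61.4% against 67.9%).

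Counted per cell, the difference in Mrc1 and Cd163 extended to the share of positive cells. Macrophage-gated cells were thinned to 5000 UMIs each, which left 3808 THP cells and 2209 vehicle cells and dropped 129 and 78 shallower ones. A Mrc1 UMI was then found in 55.8% (54.2 to 57.4) with THP and 68.9% (66.9 to 70.8) with vehicle, and 5 or more UMIs in 5.04% and 14.4%. A Cd163 UMI was found in 4.41% (3.78 to 5.11) and 11.05% (9.77 to 12.4). Unthinned, the shares were 81.5% and 85.5% for Mrc1 and 11.4% and 19.8% for Cd163. The 2 receptors also occurred in the same cells: with vehicle, Cd163 was detected in 14.2% (12.5 to 16.1) of Mrc1-positive cells and in 4.07% (2.72 to 5.83) of Mrc1-negative cells. With THP those shares were 5.74% (4.79 to 6.81) and 2.74% (2.01 to 3.63). In a cell thinned to this depth a missing UMI does not show that the gene is off.

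The gate's own markers moved with the treatment labels too. In all kept cells Adgre1 (F4/80) was 353 CPM with THP and 235 CPM with vehicle and C1qb was 301 and 203 CPM, whereas the efferocytosis receptor Mertk was at 9.52 and 14.97 CPM. Inside the macrophage gate Mertk (15.4 and 35.6 CPM) had a log2 ratio of -1.16, and C1qa (492 and 596 CPM) stood at -0.28. A gate without the C1q genes gave a Cd163 log2 ratio of -1.13, a gate from the C1q genes alone -1.55, and macrophage, Vsig4-macrophage, osteoclast-type and ungated cells pooled -1.299. Cd163 remained the single member past the rule in each of these, beside 3.69%, 3.77% and 3.28% of genes tested that passed in either direction, in that order. The part that entry into the gate had in these ratios was not tested.

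Folr2 encodes folate receptor beta, a folate-binding receptor of myeloid cells, and lies at chr7:101839988-101857194 on the minus strand. Its level was 89.5 CPM (88.2 to 90.7) with THP and 52.9 CPM (51.9 to 53.9) with vehicle over all kept cells, a ratio of 1.69 (1.65 to 1.73). Its log2 ratio of 0.75 stood at percentile 98.4 of the genes tested. Macrophage-gated cells had 135 CPM (133 to 137) and 107 CPM (104 to 110), a ratio of 1.26 (1.23 to 1.302). With the same mix of gates the log2 ratio was 0.47, beside a macrophage gate that gave 44.7% of all UMIs with THP and 29.0% with vehicle. Corrected for a trend with transcript length, the log2 ratio over all cells was also 0.47.

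The order of gates for Folr2 differed from that of the other receptors. The osteoclast-type gate was highest at 194 CPM (187 to 201) with THP and 141 CPM (136 to 147) with vehicle, followed by the macrophage gate and the Vsig4-macrophage gate (87.6 and 71.3 CPM). Folr2 was higher with THP in 9 of 9 gates, by log2 ratios of 0.26 to 1.81, with 7 of the gates at 10 CPM or more in 1 library. It passed the rule in the MHC class II gate (17.8 and 7.51 CPM, beside 1.17% of genes passing upwards), the immature neutrophil gate (24.3 and 7.64 CPM, beside 1.92%) and the progenitor gate (15.6 and 5.22 CPM, beside 1.44%). All 3 calls rested on 79 to 248 UMIs per library and on thinned shares of 0.464% to 2.10% of cells, against 21.2% and 16.5% in the macrophage gate. Leaving out cells with markers of several lineages lowered the immature neutrophil levels to 12.4 and 4.88 CPM, still past the rule. The progenitor levels fell to 8.40 and 3.23 CPM, under the 10 CPM limit. For the MHC class II gate this alternative is not given here. At these low counts the 3 values were not read as expression, and the part of free RNA was not tested.

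**Figure D3:**
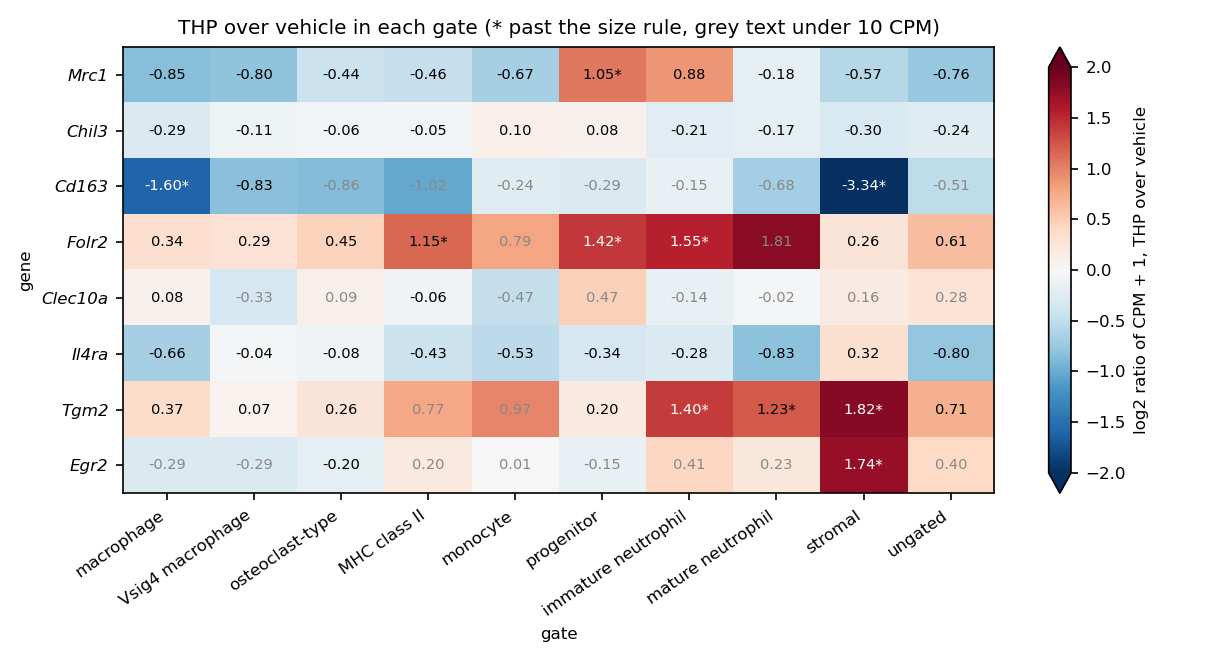
Log2 ratio of CPM + 1, THP over vehicle, of each marker (rows) in each gate (columns); red is higher and blue lower with THP, an asterisk marks a value past the size rule, and grey text marks genes under 10 CPM in both libraries. Folr2 and Tgm2 are above 0 and Cd163 is below 0 in all columns, although Cd163 in the immature neutrophil gate lies above that gate's median of all genes.

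Clec10a encodes a C-type lectin that binds galactose and N-acetylgalactosamine (chr11:70156197-70170834, plus strand). It was scarce in the libraries as a whole, at 9.77 CPM (9.36 to 10.2) with THP and 9.57 CPM (9.16 to 10.0) with vehicle, from 2196 and 1988 UMIs, and these intervals overlapped. The MHC class II gate was its highest in each library, at 40.9 CPM (37.5 to 44.6) and 42.8 CPM (39.7 to 46.0), and the macrophage gate stood at 10.1 and 9.48 CPM. The MHC class II gate gave 23.6% of the Clec10a UMIs with THP and 37.0% with vehicle. Those were 518 and 735 UMIs, beside 1014 and 571 UMIs in the macrophage gate. The interval of the ratio in the MHC class II gate ran from 0.852 to 1.07, so a difference between the libraries was not detectable there at this depth. Mgl2, its close paralog, was at 7.28 and 10.8 CPM, and reads shared by the pair could have been split or lost in counting.

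Il4ra encodes the receptor chain that IL-4 and IL-13 receptors share (chr7:125552120-125579474, plus strand). The level in all kept cells was 17.8 CPM (17.3 to 18.4) with THP and 24.4 CPM (23.7 to 25.0) with vehicle. In the macrophage gate the levels were 21.2 CPM (20.3 to 22.1) and 34.0 CPM (32.6 to 35.5), a log2 ratio of -0.66. Il4ra was lower with THP in 8 of 9 gates, the stromal gate being the other, but relative to the median of all genes in each gate it was below in 6 of 9. The stromal gate had the highest level (71.4 and 57.2 CPM, from 137 and 163 UMIs), and the remaining gates lay between 10.5 and 34.0 CPM. The macrophage gate held 53.1% and 40.5% of its UMIs.

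The other genes of the IL-4 and IL-13 pathway gave a median log2 ratio of -0.26, beside -0.18 over all genes tested, and none of the 7 tested of 12 listed passed the rule. The highest ratios were those of the phosphatase Ptpn6 (265 and 232 CPM with THP and vehicle, log2 ratio 0.19), the common gamma chain Il2rg (61.1 and 56.3 CPM, 0.12) and the kinase Tyk2 (18.6 and 17.8 CPM, 0.06). At the other end were the kinases Jak1 (114 and 153 CPM, -0.42) and Jak2 (21.7 and 28.8 CPM, -0.39) and the phosphatase Ptpn11 (46.8 and 56.4 CPM, -0.26). Stat6 was next at 51.3 and 61.5 CPM (-0.26). The adaptor Irs2 was under 10 CPM in both libraries, at 2.94 and 6.01 CPM.

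Tgm2 encodes transglutaminase 2, which crosslinks proteins through glutamine and lysine side chains (chr2:158116402-158146436, minus strand). Over all kept cells it was 18.4 CPM (17.8 to 19.0) with THP and 12.04 CPM (11.6 to 12.5) with vehicle, a ratio of 1.53 (1.45 to 1.61) at percentile 97.6. Apart from the stromal gate, the widest differences lay in the neutrophil gates. Mature neutrophils had 45.8 CPM (41.3 to 50.7) with THP and 18.9 CPM (16.2 to 22.0) with vehicle, a ratio of 2.42 (2.02 to 2.92) from 374 UMIs in 310 cells and 171 UMIs in 125 cells. Immature neutrophils had 34.8 CPM (30.6 to 39.3) and 12.6 CPM (10.5 to 14.9), a ratio of 2.77 (2.23 to 3.44) from 255 and 130 UMIs. Both passed the rule, beside 1.62% of genes higher in the mature and 1.92% in the immature gate. These UMI counts were of the same order as those of the Mrc1 and Folr2 values above that were not read as expression.

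Mature neutrophils were shallow, at a median of 2964 UMIs per cell with THP and 2698.5 with vehicle, and 20.7% and 7.78% of them had a Tgm2 UMI. Thinned to 2000 UMIs, which kept 1114 and 1073 cells, the shares were 10.7% (8.93 to 12.6) and 2.61% (1.74 to 3.75). The immature gate gave 8.05% (6.40 to 9.95) and 2.60% (1.80 to 3.61). The neutrophil shares with THP were above that of the macrophage gate (4.10% and 3.16%), the gate with most Tgm2 UMIs. With vehicle they were not. No gate is known to lack Tgm2, so these shares have no background share beside them. Barcodes outside the cell filter had 37.3 CPM (29.9 to 46.1) with THP and 10.5 CPM (5.87 to 17.3) with vehicle, a gap in the same direction, and the part of free RNA was not tested. Leaving out cells with markers of several lineages gave 44.8 and 18.6 CPM in mature and 36.0 and 12.2 CPM in immature neutrophils. Tgm2 was higher with THP in 9 of 9 gates and differed little in the Vsig4-macrophage gate (33.3 CPM, 28.0 to 39.3, and 31.7 CPM, 26.3 to 38.0). The stromal gate also passed the rule (50 and 19 UMIs, beside 3.02% of genes higher there).

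Chil3, the secreted chitinase-like protein also called Ym1, was by far the most abundant of the 8. It lies at chr3:106147554-106167564 on the minus strand. Over all kept cells it was 2061 CPM (2055 to 2067) with THP and 3127 CPM (3119 to 3134) with vehicle, a ratio of 0.659 (0.657 to 0.662). Per kilobase of the longest transcript that is 1339 and 2032 CPM, against 74.3 and 43.9 CPM for Folr2 and 25.8 and 32.6 CPM for Mrc1. The immature neutrophil gate had 15111 CPM with THP and 17425 CPM with vehicle, the mature gate 14178 and 15997 CPM, the progenitor gate 6915 and 6523 CPM and the monocyte gate 4365 and 4067 CPM. These 4 gates kept the same order in both libraries without overlap of neighbouring intervals, and each of their log2 ratios lay between -0.21 and 0.10. With the same mix of gates in both libraries the log2 ratio over all cells was -0.05, against -0.60 with each library's own mix.

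In the macrophage gate Chil3 was 183 CPM (181 to 186) with THP and 225 CPM (221 to 229) with vehicle. After thinning to 2000 UMIs, 13.6% and 19.0% of macrophage-gated cells had a Chil3 UMI (66.0% and 83.1% unthinned). The osteoclast-type gate gave 13.5% and 18.0% and the stromal gate, of cells not known to make it, 10.1% (4.47 to 19.0) and 19.1% (10.6 to 30.5). The macrophage shares were thus not apart from the stromal ones, while on the CPM scale the stromal gate was lower, at 66.7 CPM (55.7 to 79.3) and 82.4 CPM (72.2 to 93.6). Single macrophage-gated cells held up to 65 and 82 Chil3 UMIs after thinning to 5000. Whether the macrophage values come from the gated cells or from free RNA was not tested. In neutrophils the share was 99.8% and 99.9% in the immature gate, and 82.9% and 89.0% in the mature gate. Chil4, a near-identical copy, was counted at 5 and 21 UMIs in the whole libraries, and reads that fit both genes could have been assigned to either or lost.

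**Figure D4:**
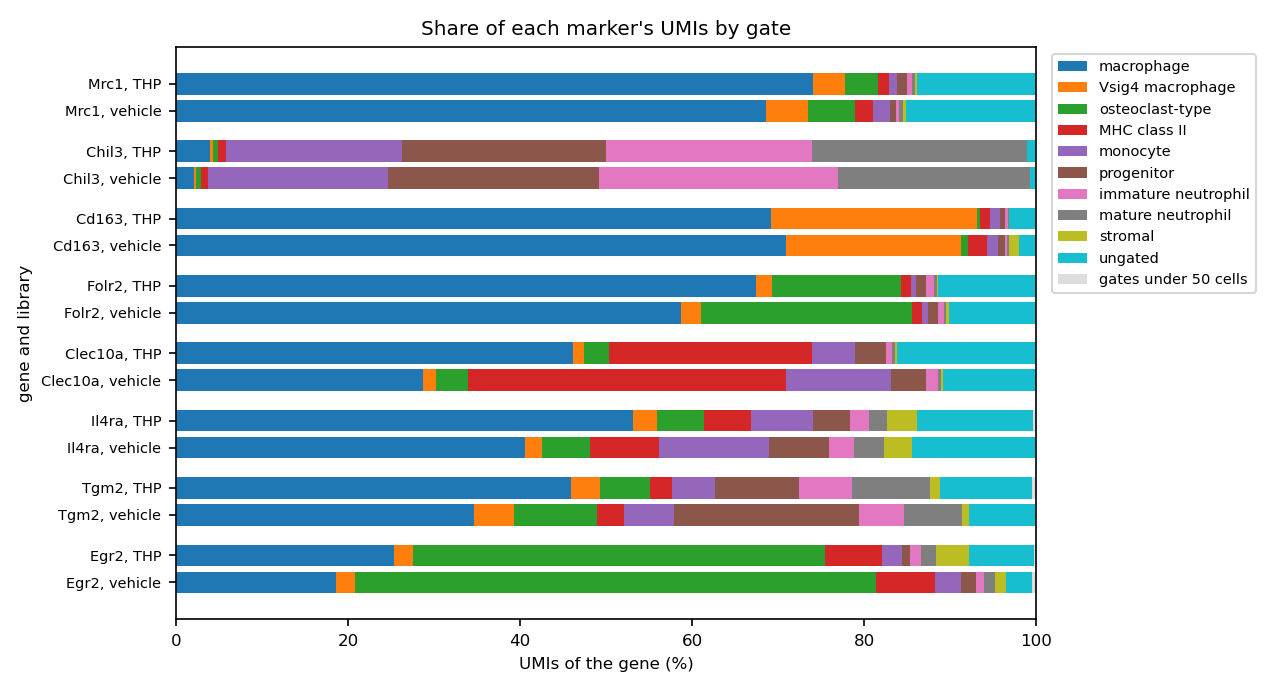
Share of each marker's UMIs (%) that came from each gate, with a bar for the THP and a bar for the vehicle library. Most Mrc1, Cd163 and Folr2 UMIs came from the macrophage gate, most Chil3 UMIs from the neutrophil, progenitor and monocyte gates, and 47.9% and 60.6% of Egr2 UMIs from the osteoclast-type gate.

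Egr2 encodes a zinc-finger transcription factor of the early growth response family (chr10:67535475-67542188, plus strand). It was the least abundant member, at 3.08 CPM (2.86 to 3.32) with THP and 3.70 CPM (3.45 to 3.97) with vehicle, from 693 and 769 UMIs. The osteoclast-type gate had the highest value, 21.3 CPM (19.0 to 23.7) and 24.5 CPM (22.4 to 26.9). With THP its interval overlapped that of the stromal gate (14.1 CPM with THP and 3.51 CPM with vehicle), so the order of these gates is open. The osteoclast-type gate gave 47.9% and 60.6% of the UMIs from 5.00% and 5.57% of the cells. The macrophage gate was at 1.75 CPM (1.503 to 2.03) and 2.37 CPM (2.00 to 2.79). The stromal value passed the rule on 27 UMIs in 19 cells and 10 UMIs in 8 cells, beside 3.02% of genes higher there. Within its family and the Nab corepressors, none of 3 genes tested of 5 listed passed the rule: Egr1 was 14.6 and 19.2 CPM (log2 ratio -0.37), Nab1 82.5 and 82.7 CPM (0.00) and Nab2 21.7 and 20.1 CPM (0.10).

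Across the 9 gates the members were tested 48 times and passed the rule 10 times, 8 times higher and 2 times lower with THP, beside 5.31% of all gene and gate pairs tested. That share covers both directions. By gate, 0.719% to 3.02% of genes tested passed upwards and 2.05% to 6.82% downwards, so the lower calls of the members do not stand apart from all genes. Of the 10, 4 are the Mrc1 and Folr2 values that were not read as expression, and 3 are stromal values on 1 to 50 UMIs per library. The other 3 are Cd163 in the macrophage gate and Tgm2 in both neutrophil gates, where the Tgm2 UMI counts were of the same order as in those 4. Folr2 and Tgm2 kept their direction in 9 of 9 gates also relative to the median of all genes in each gate. Each was at 10 CPM or more in 1 library in 7 of these gates, and 3 of the Folr2 values were not read as expression. All gates come from the same 2 libraries, so they are not independent. The share of all genes that keep 1 direction in every gate is not given here. Cd163 was below 0 in 9 of 9 gates and below the gate's median in 8 of 9, the immature neutrophil gate, with 5 and 9 UMIs, being the exception. Only 3 of the 9 gates had Cd163 at 10 CPM or more in 1 library, so the other directions rest on low counts too. Mrc1 was below 0 in 7 of 9 and below the median in 6 of 9, the progenitor gate and the immature neutrophil gate (24.3 and 12.8 CPM) being above 0. Chil3 was below 0 in 7 of 9 gates and below the gate's median in 3 of 9, while Clec10a was below 0 in 5 of 9 and Egr2 in 4 of 9. Clec10a and Egr2 each reached 10 CPM in 1 library in only 2 of the gates.

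The genes whose levels followed each member most closely over 8 gates in both libraries (16 points) were found among the 8012 tested genes. The points share libraries and depth, so the correlations are descriptions. For Mrc1 they were Gas6, Twf1 and Siglec1 (Pearson r 0.98 each), for Folr2 Igf1, Igf2bp2 and Pmp22 (0.98 to 0.97), and for Cd163 Kcnj10, Vsig4 and Ccr3 (0.98 to 0.97), of which Vsig4 is itself a gate marker. For Chil3 they were Trem3, Nfe2 and Thbs1 (0.99 each). Il4ra was followed by Ell, Elmsan1 and Rab35 (0.93 to 0.92), and Tgm2, with the weakest relations, by Vcam1, Cept1 and Cflar (0.82 to 0.77).

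Other effectors and regulators of alternative activation gave no gene past the rule. Of 24 listed, 23 were found and 10 were tested, with a median log2 ratio of -0.44 beside -0.18 over all genes; Clec7a was not analysed here. Kdm6b (11.9 and 11.1 CPM, log2 ratio 0.10), Myc (38.3 and 38.2 CPM, 0.01) and Pparg (10.6 and 11.3 CPM, -0.08) were at the upper end. Fn1, fibronectin, (34.1 and 62.9 CPM, -0.86), Cd200r1, an inhibitory receptor, (44.0 and 70.8 CPM, -0.68) and the transcription factor Klf4 (17.9 and 27.9 CPM, -0.61) were at the lower end. The classical marker Arg1, arginase 1, was under 10 CPM over all kept cells, at 9.38 CPM with THP and 4.72 CPM with vehicle. In the macrophage gate it was at 16.1 and 13.7 CPM, a log2 ratio of 0.22. Retnla (Fizz1) was counted at 52 and 9 UMIs in the whole libraries.

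Resident-type macrophage genes and a list of IL-10 and glucocorticoid genes, signals that Cd163 is known to respond to, completed the lists. The second list holds parts of the signal paths, such as the receptors Il10ra and Nr3c1, as well as responding genes. None of the 13 resident-type genes tested of 16 passed the rule over all cells (median log2 ratio 0.03), with Pf4 (1425 and 755 CPM, 0.92), Cd209f (17.2 and 10.6 CPM, 0.66) and Igf1 (220 and 164 CPM, 0.42) at the upper end and Vsig4 (13.7 and 19.4 CPM, -0.48) and Maf (259 and 309 CPM, -0.26) towards the lower. In the macrophage gate the median of 14 tested was -0.45, with Vsig4 at 19.0 and 37.5 CPM and Maf at 395 and 654 CPM. None of 5 IL-10 and glucocorticoid genes tested of 6 passed, from Hmox1 (168 and 131 CPM, 0.36), Il10ra (18.6 and 14.3 CPM, 0.36) and Tsc22d3 (15.5 and 19.5 CPM, -0.31) to the glucocorticoid receptor Nr3c1 (52.1 and 85.3 CPM, -0.70) and Fkbp5 (18.2 and 34.2 CPM, -0.88). Of 9 paralogs listed, 2 were tested and neither passed: Chil1 (70.5 and 79.9 CPM, -0.18) and Mgl2 (-0.51).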

How the data were processed

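The deposited matrices hold whole-number UMI counts for each gene in each barcode, not normalized. Per the file headers they were written by software version 3.1.0 in format version 2. The authors named Cell Ranger, STAR, bcl2fastq and the mm10 build, per the submitters' processing notes. For the annotation release, "not given in the sources used here" applies. Coordinates of genes and transcript lengths came from GENCODE on GRCm38 and promoters from RefSeq.

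Kept barcodes had at least 500 genes, 1000 UMIs and at most 10% mitochondrial UMIs. No doublet caller was run; leaving out cells with markers of several lineages, or the top 5% of cells by UMIs, were alternatives. UMIs were summed per library or gate and given as CPM with exact Poisson intervals; shares have exact Clopper-Pearson intervals. Ratios are log2 of CPM + 1, which understates changes of low genes. Marker sets were 13; a cell joined the gate with the largest ratio of marker UMIs per 10000 to a threshold, if at least 1. Thresholds were set after seeing the pooled marker levels, without the members; gates with fewer than 50 cells in a library (mast or basophil, B-lineage, T or NK, eosinophil) were not described. Thinning drew 2000 or 5000 UMIs per cell, leaving out shallower cells. Named were all 8 members, the 3 highest and 3 lowest ratios of each list at 10 CPM or more in 1 library, and the 3 genes most correlated with each member at 10 CPM or more; 1 gene that the rule names is not reported here, and the others named in the lists, the gate markers and near-identical copies were chosen after their values were seen. The members and lists were chosen with earlier results of these data known. The size rule, intervals and thinning were tested on simulated data. Versions were Python 3.11.15, numpy 2.4.6, scipy 1.17.1, pandas 2.3.3, statsmodels 0.14.6 (length trend), matplotlib, R 4.3.3, edgeR 4.0.16 (TMM factors) and DESeq2 1.42.0 (size factors).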

Additional observations from a re-analysis of the deposited data

Results flagged for a closer look

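Mrc1 stood out for opposite directions in 2 gates: its log2 ratio was 1.05 in the progenitor gate and -0.85 in the macrophage gate, the progenitor value resting on low counts that were not read as expression. Chil3 did likewise, with 0.10 in the monocyte gate and -0.29 in the macrophage gate, where the part of free RNA was not tested. Neither difference between gates was tested, since each group is 1 library.

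Except for the Tgm2 values, barcodes outside the cell filter were in no comparison above. Folr2 was at 66.0 CPM (55.9 to 77.3) in those of the THP library and 36.4 CPM (27.2 to 47.7) in those of the vehicle library, from 152 and 52 UMIs. Tgm2 was at 37.3 CPM (29.9 to 46.1) and 10.5 CPM (5.87 to 17.3), from 86 and 15 UMIs.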

How the results depend on the processing

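With 1 library per group nothing separates treatment from library, and gates depend on thresholds and on markers that differ between the libraries. Over all kept cells the count of members past the size rule moved from 0 to 1 (Cd163) with the same mix of gates and with a pseudocount of 0.1 CPM. Those settings passed 3.14% and 4.74% of all genes tested. With a fold limit of 1.5 the count moved to 3 (Chil3, Cd163, Folr2), beside 19.6% of all genes tested. In the macrophage gate the count moved from 1 to 3 (Mrc1, Cd163, Il4ra) with a fold limit of 1.5, beside 18.7% of genes tested there. The Cd163 log2 ratio in that gate ranged from -1.87 to -1.13. No member past the rule changed direction; Clec10a, never past it, changed sign in 2 of 10 alternatives over all cells and 2 of 9 in the macrophage gate. Over the 9 gates the 10 calls became 9 (8 shared) without cells of several lineages, 10 (9 shared) without the top 5% of cells, 10 at thresholds multiplied by 0.5 and 11 at thresholds multiplied by 2 (10 shared in each). The shares of all genes over the 9 gates at these settings are not given here. Each member's highest gate was the same for 8 of 8 at other thresholds and for 7 of 8 by thinned share.

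Over all genes, 73 passed upwards and 238 downwards. TMM gave 104 and 99, DESeq2 size factors 106 and 94, length correction 82 and 122, a pseudocount of 5 CPM 60 and 111 and a fold limit of 1.5 187 and 1387; in the macrophage gate 81 and 215 became 111 and 101 with TMM and 186 and 1297 with a fold limit of 1.5. The C1q-only gate, the pooled macrophage-type cells and the gate-wide counts were added after seeing the data. No paired analysis was possible because each group is a single library.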

Other observations

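In the barcodes outside the cell filter the other members were also counted. Chil3 was at 4372 CPM with THP and 8660 CPM with vehicle, and Cd163 at 13.9 CPM (9.50 to 19.6) and 55.9 CPM (44.4 to 69.6), from 32 and 80 UMIs. Mrc1 was at 225 CPM (206 to 245) and 264 CPM (238 to 292), with overlapping intervals.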
